A study of Mus musculus with 28 samples.

Results

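The BCL2 family members Bcl2a1a, Bcl2a1b, Bcl2a1d, Mcl1, Bcl2l1, Bcl2l11, Bbc3, Pmaip1, Bax and Bak1 were followed in murine bone marrow-derived macrophages (BMDMs). These 10 genes were taken by name from 54532 genes in the deposited count table, and all 10 had counts. RNA was sequenced from 28 cultures: 5 control cultures given PBS, 5 given 10 µg/ml of plasma-derived von Willebrand factor (VWF, a plasma glycoprotein that tethers platelets) and 4 given 100 ng/ml of bacterial lipopolysaccharide (LPS, the ligand of Toll-like receptor 4), at both 3.5 h and 16 h. All groups came from the bone marrow of C57/B6JB mice, were differentiated with M-CSF and were kept in medium with 1 mM CaCl2 during treatment. The labels call the replicates biological and number them but do not say whether they came from separate animals, so p values measure the spread between these cultures.

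BCL2 family proteins set the threshold for the mitochondrial pathway of apoptosis. Pro-survival members bind and restrain the effectors BAX and BAK, which otherwise form pores in the outer mitochondrial membrane and release cytochrome c. BH3-only proteins such as BIM (gene Bcl2l11), PUMA (Bbc3) and NOXA (Pmaip1) bind the pro-survival members. Transcript levels say nothing of the protein levels, phosphorylation or turnover through which several of these proteins are also controlled.

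The A1 protein, also called BFL1, is a pro-survival member encoded in the mouse by near-identical gene copies on chromosome 9. Bcl2a1a lies at chr9:88956900-88962419 on the plus strand, Bcl2a1b at chr9:89199209-89207827 on the plus strand and Bcl2a1d at chr9:88723285-88731914 on the minus strand (GRCm38, GENCODE M21). The coding sequences are 516 bases long without the stop codon, and 12 of these positions differ among the copies. Bcl2a1a and Bcl2a1b differ at 11 positions, Bcl2a1a and Bcl2a1d at 7, and Bcl2a1b and Bcl2a1d at 6. The first 150 coding bases, all in 1 exon, are shown because they hold 7 of the 12 positions, printed in capitals, by which reads can be assigned to a copy.
Bcl2a1a, chr9:88957051-88957200, plus strand: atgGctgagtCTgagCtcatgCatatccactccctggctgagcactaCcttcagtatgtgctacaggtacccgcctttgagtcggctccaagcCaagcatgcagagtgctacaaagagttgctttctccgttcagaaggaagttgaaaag
Bcl2a1b, chr9:89199360-89199509, plus strand: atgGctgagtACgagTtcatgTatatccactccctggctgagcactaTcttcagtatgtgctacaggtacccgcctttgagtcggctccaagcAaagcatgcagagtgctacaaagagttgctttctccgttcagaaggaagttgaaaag
Bcl2a1d, chr9:88731570-88731719, minus strand: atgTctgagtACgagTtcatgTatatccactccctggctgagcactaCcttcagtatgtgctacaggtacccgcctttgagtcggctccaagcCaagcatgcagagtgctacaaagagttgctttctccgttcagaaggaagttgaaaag

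Of the 100-base windows in its transcripts, Bcl2a1a shared 43.5% with another gene, Bcl2a1b 56.8% and Bcl2a1d 54.7%. The paper states that STAR was used to map and quantify the reads, but not how reads that map to several places were treated. The split of counts among the 3 copies is therefore uncertain, and their sum is given beside them. If such reads were not counted, the levels of the copies and of their sum are too low. Bcl2a1b also overlapped the readthrough gene Gm29094 over 49.1% of its exon bases, and that gene had at most 4 counts in any culture. Bax overlapped Gm45808 over 12.2% of its exon bases, and that gene also had at most 4 counts. Bak1 overlapped the opposite-strand gene Ggnbp1 over 25.5% of its exon bases. The entry of Ggnbp1 found in the count table had 30 to 171 counts per culture, while Bak1 had at least 3643. How reads in an overlap were assigned is not given. Low counts of the overlapping genes therefore cannot show whether reads of the members were left out.

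The sequences upstream of the 3 A1 genes were also compared, because all 3 copies rose at 3.5 h. RefSeq promoter windows of GRCm38.p6, each of 300 bases around a start, were searched on both strands for short motifs. The first was TGANTCA, a loose form of the AP-1 motif, where N is any base and the stricter motif has C or G. The others were an NF-κB motif (GGG, then 3 of any base, then TTCC) and the interferon-stimulated response element (GAAA, then 2 of any base, then GAAA). The windows of 9 members were found. TGANTCA was present in all 3 A1 windows and in no other member, against 7.81% of 32851 windows in all. The stretches shown lie upstream of every annotated transcript start, with the match in capitals. In each stretch the match was TGAATCA, with A at N, so it was not of the stricter form. The stretches of Bcl2a1a and Bcl2a1b were identical, and that of Bcl2a1d differed from them at 1 base and lacked 6 bases. The matches in the 3 copies are thus not independent of each other.
Bcl2a1a, chr9:88956714-88956855, plus strand: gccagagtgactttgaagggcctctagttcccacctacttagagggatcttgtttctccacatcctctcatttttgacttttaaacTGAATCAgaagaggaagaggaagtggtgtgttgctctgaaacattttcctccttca
Bcl2a1b, chr9:89199023-89199164, plus strand: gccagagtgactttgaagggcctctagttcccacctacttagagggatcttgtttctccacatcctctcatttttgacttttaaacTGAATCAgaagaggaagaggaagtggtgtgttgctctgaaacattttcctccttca
Bcl2a1d, chr9:88731915-88732050, minus strand: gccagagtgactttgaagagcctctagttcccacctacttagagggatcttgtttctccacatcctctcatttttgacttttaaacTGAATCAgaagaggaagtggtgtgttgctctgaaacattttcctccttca

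The NF-κB letters were found, on the opposite strand to the gene, in the window of Mcl1 and in 1 of 3 windows of both Bcl2l1 and Bbc3, against 5.56% of all windows. These sites are shown, with the match in capitals, because the 3 genes did not move alike. No member window held the interferon-response letters, which 3.44% of all windows did. A match is a run of letters, and whether a factor binds there was not measured.
Mcl1, chr3:95658683-95658712, plus strand: ccagccctccGGAAACGCCCgcccctttcc
Bcl2l1, chr2:152830916-152830945, minus strand: tacgcctctcGGAAAAACCCgggagtggtc
Bbc3, chr7:16309437-16309466, plus strand: ctggctgccgGGAAACCCCCcgcgccgagg

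Total counts per culture ranged from 41131209 to 77699206. Levels are CPM, counts scaled to library size and TMM factors, given as mean ± SD. Differences are log2 fold changes with standard errors (SE) from edgeR's quasi-likelihood test, with p values adjusted by the Benjamini-Hochberg method over all genes tested. A gene was tested where at least 1 culture of the comparison reached 10 TPM, which also divides by exon length, and rose or fell where the adjusted p was under 0.05 and the absolute log2 fold change over 1. In bulk RNA, fewer cells that express a gene and less RNA per cell cannot be told apart.

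The cultures expressed the macrophage markers Adgre1, Csf1r, Cd68, Itgam, Lyz2, Fcgr1, Mertk and Cd14, all with counts in every group. Of 8 neutrophil markers, Ly6g, Elane, Mpo and Cxcr2 stayed under 1 CPM in every culture, while S100a8 reached 24.3 CPM, S100a9 9.98, Ngp 6.12 and Camp 3.34. The mean of S100a8 was 3.63 to 7.22 CPM in the groups at 3.5 h and 13.8 to 15.6 CPM at 16 h, and the summed list was 4.74 to 36.9 CPM. The summed level of 3 fibroblast markers was 16.3 to 382 CPM. Of 4 dendritic cell markers, Xcr1 was higher with the agonists at 3.5 h, where the summed list was 1.21 to 1.85 CPM in control, 13.6 to 19.3 CPM with VWF and 21.6 to 27.05 CPM with LPS. At 16 h the dendritic cell sum was 0.611 to 1.95 CPM in control, 0.915 to 2.91 CPM with VWF and 12.85 to 29.85 CPM with LPS. Most of that sum with LPS was Xcr1, at a mean of 20.1 CPM, while Flt3, Zbtb46 and Siglech had means of 0.065, 0.51 and 0.14 CPM. Zbtb46 had means at 3.5 h of 0.988 CPM in control, 2.91 with VWF and 1.66 with LPS. The part of such cells in the results was not tested.

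Control 16 h replicate 5 and LPS 16 h replicate 4 stood apart from their groups. Their summed macrophage markers were 5862 and 9937 CPM, against at least 15005 CPM in the other controls and at least 14419 CPM in the other LPS cultures at 16 h. Across 8867 genes, their median correlations with the other cultures of the group were 0.911 and 0.940. VWF 16 h replicate 4, at 0.976, was within the 0.974 to 0.993 of the other 25 cultures and was left out with them because its Bax level was high. Its summed macrophage markers were 18739 CPM, against at least 23510 CPM in the other VWF cultures at 16 h. It also had the highest Bcl2a1b (41.3 CPM, others 18.7 to 26.8) and Bcl2l1 (168 CPM, others 120 to 144) of its group. Without these 3 cultures at 16 h, the number of members that rose or fell was as with them in all 8 comparisons that hold 16 h cultures, and values that depend on them are given below with and without them. At 3.5 h, replicate 1 had the lowest summed markers of each group. It was at 9666 CPM in control (others at least 12432), 11791 with VWF (at least 13904) and 8771 with LPS (at least 13498). The median correlations of these replicates, 0.983 to 0.984, were within the range above.

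**Figure D1:**
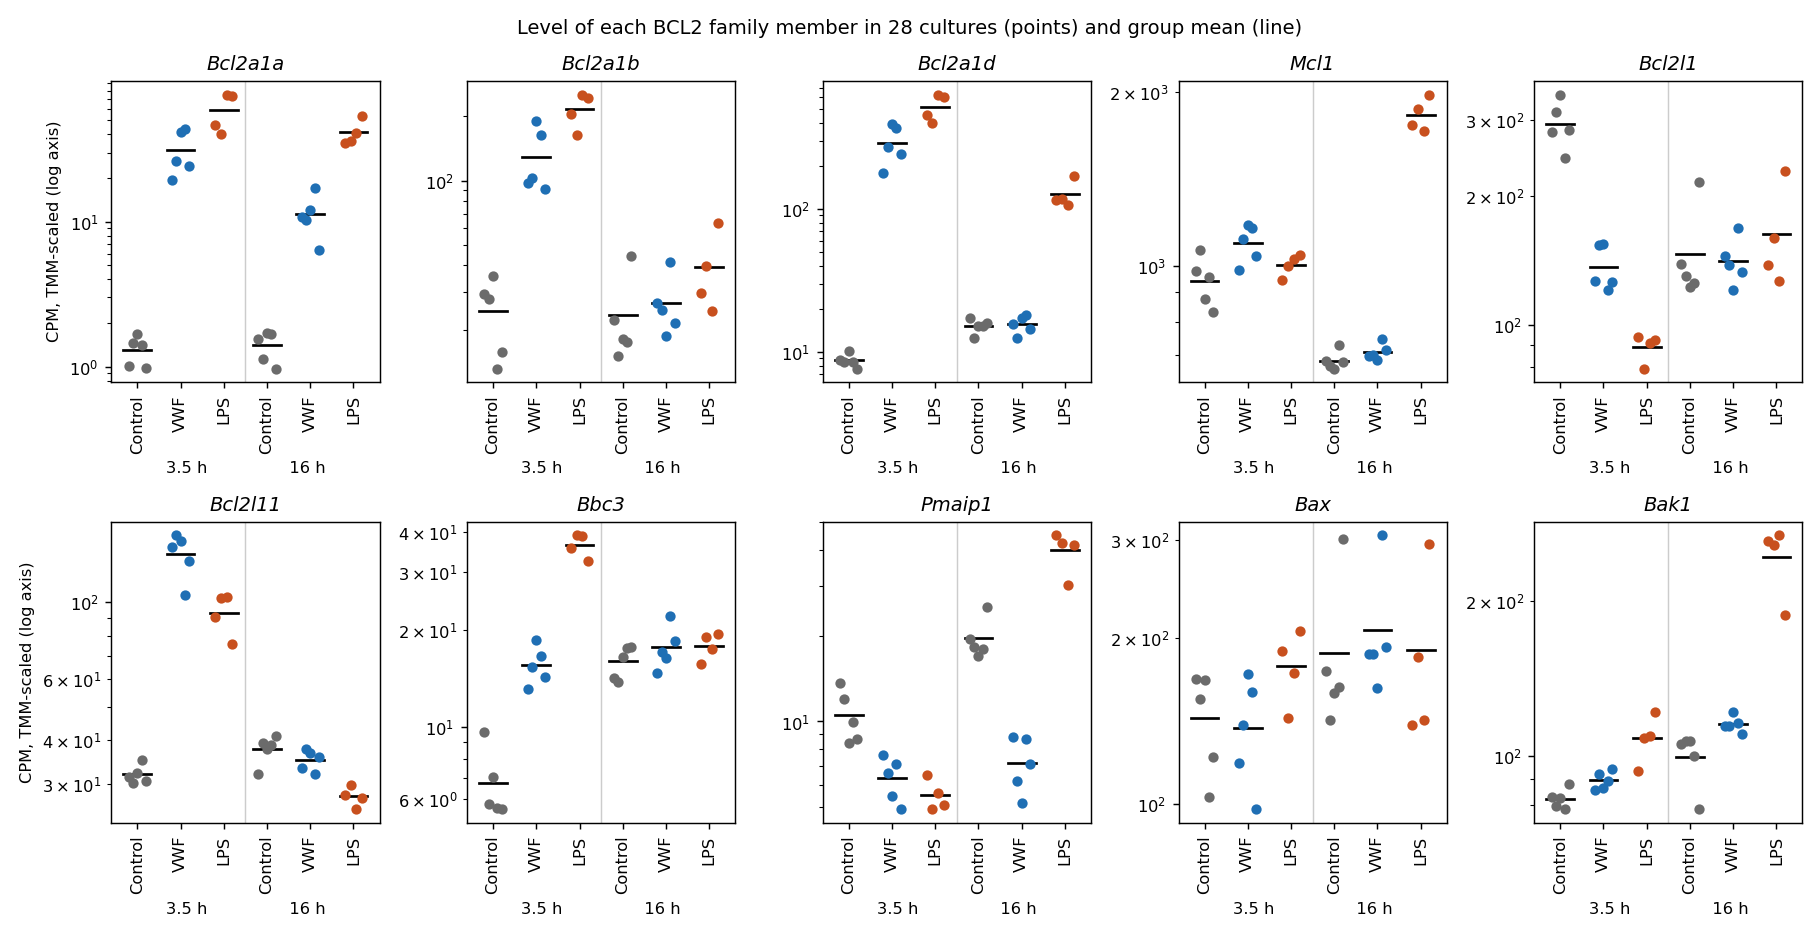
Level of each member in CPM scaled by TMM factors (log axis) in 28 cultures, with 1 point per culture and a line at the group mean, for control (grey), VWF (blue) and LPS (orange) at 3.5 h and 16 h. The A1 genes and Bcl2l11 were high with both agonists at 3.5 h, and Mcl1, Pmaip1 and Bak1 were highest with LPS at 16 h.

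At 3.5 h, VWF raised the 3 A1 genes and the BH3-only genes Bcl2l11 and Bbc3, and lowered Bcl2l1, which encodes the pro-survival protein BCL-XL. Thus 5 of the 10 members rose and 1 fell, while 14.7% of all 8200 genes tested were called, 9.1% higher and 5.59% lower. The median log2 fold change was 0.73 over the 10 members and -0.0088 over all genes tested. The 3 A1 copies share sequence and are not independent, yet each counts as a member in this and later counts and medians. These therefore lean toward the A1 genes. The values below were compared with the same control cultures for VWF and for LPS.

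Bcl2a1d was at 8.75, 8.45, 10.2, 8.55 and 7.64 CPM in the control cultures and at 178, 270, 394, 369 and 240 CPM with VWF. Every VWF culture was far above every control culture, and the log2 fold change was 5.07 ± 0.22 (SE, n = 5 and 5, edgeR adjusted p = 1.335e-08). Bcl2a1a was at 0.981 to 1.67 CPM in control, from 47 to 109 counts per culture, and at 19.5 to 43.8 CPM with VWF. Its log2 fold change was 4.58 ± 0.27 (edgeR adjusted p = 1.038e-07). Bcl2a1b, the copy with the highest TPM in control, was at 13.2 to 35.7 CPM there and at 91.5 to 189 CPM with VWF, a log2 fold change of 2.41 ± 0.31 (edgeR adjusted p = 6.497e-05). The sum of the 3 copies rose from 34.4 ± 10.4 to 450 ± 143 CPM (SD, n = 5 and 5), by 3.72 ± 0.28 on the log2 scale (edgeR adjusted p = 6.57e-07). The sum does not depend on how reads were split among the copies, but it would miss reads that were not counted.

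Of the other pro-survival members, Bcl2l1 was at 282, 314, 344, 244 and 285 CPM in control and at 127, 154, 154, 120 and 126 CPM with VWF. The groups did not overlap, and it fell by 1.09 ± 0.11 on the log2 scale (edgeR adjusted p = 8.587e-06). Mcl1, which encodes a short-lived protein, was at 941 ± 91.0 CPM in control and 1096 ± 82.9 CPM with VWF (SD, n = 5 and 5). Its log2 fold change of 0.24 ± 0.088 was under the fold threshold (edgeR adjusted p = 0.04867), the groups overlapped, and the adjusted p passed in only 2 of 10 fits that left out 1 culture.

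Among the BH3-only genes, Bcl2l11 was at 31.4, 30.3, 32.3, 35.1 and 30.6 CPM in control and at 145, 156, 151, 105 and 132 CPM with VWF. The log2 fold change was 2.13 ± 0.11 (edgeR adjusted p = 3.497e-08), and all VWF cultures lay above all controls. Bbc3, a p53 target that also responds to other signals, was at 5.59 to 9.68 CPM in control and at 13.1 to 18.6 CPM with VWF, a log2 fold change of 1.22 ± 0.17 (edgeR adjusted p = 0.0001125). With scaling by library size alone this value was 0.9996, just under the fold threshold, in a fit where the median of all genes was -0.22. Pmaip1 went the other way, from 8.37 to 13.7 CPM in control to 4.91 to 7.60 CPM with VWF. The groups did not overlap, but the log2 fold change of -0.72 ± 0.17 was under the fold threshold (edgeR adjusted p = 0.005599).

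The effectors showed no change past the test at 3.5 h with VWF. Bax was at 143 ± 29.3 CPM in control and 137 ± 30.0 CPM with VWF (SD, n = 5 and 5), a log2 fold change of -0.046 ± 0.18 (edgeR adjusted p = 0.8751), whose sign turned with the filter and the culture left out. Bak1 was at 82.4 ± 3.59 and 89.5 ± 3.66 CPM, a log2 fold change of 0.14 ± 0.063 (edgeR adjusted p = 0.1003), which was -0.078 with library size alone.

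LPS at 3.5 h moved the same 6 members past the test. The 3 A1 genes, Bcl2l11 and Bbc3 rose and Bcl2l1 fell, against 24.5% of 8190 genes called, 12.8% higher and 11.8% lower. The median log2 fold change was 0.99 over the members and -0.017 over all genes tested. Bcl2a1d was at 449, 395, 627 and 600 CPM, a log2 fold change of 5.91 ± 0.17 (edgeR adjusted p = 4.31e-10). Bcl2a1a was at 40.6 to 75.2 CPM and rose by 5.51 ± 0.25, and Bcl2a1b was at 163 to 252 CPM and rose by 3.16 ± 0.29 on the log2 scale (edgeR adjusted p = 7.888e-09 and 2.838e-06). The A1 sum was 793 ± 171 CPM (SD, n = 4), which made it 4.54 ± 0.26 higher than control on the log2 scale (edgeR adjusted p = 4.837e-08).

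Bcl2l1 was at 93.7, 79.1, 90.6 and 92.4 CPM with LPS, below every control and every VWF culture at that time. It fell by 1.70 ± 0.11 on the log2 scale against control (edgeR adjusted p = 1.924e-07). Bcl2l11 was at 90.6, 103, 104 and 76.0 CPM (1.57 ± 0.10, edgeR adjusted p = 1.463e-07) and Bbc3 at 35.7, 39.0, 38.9 and 32.4 CPM (2.45 ± 0.17, edgeR adjusted p = 3.07e-07). Pmaip1 was at 4.92 to 6.49 CPM, a log2 fold change of -0.91 ± 0.18 under the fold threshold (edgeR adjusted p = 0.001022) that was -1.44 and past it with library size alone. Mcl1 was at 944 to 1043 CPM, within the range of the controls. Bak1 was at 93.4 to 122 CPM, above all controls, with a log2 fold change of 0.41 ± 0.088 (edgeR adjusted p = 0.001659) that was -0.13 with library size alone. Library size scaling moved the median of all genes to -0.55 in this comparison, so that value lay above the median under both scalings. Bax had a log2 fold change of 0.33 ± 0.17 (edgeR adjusted p = 0.1043).

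Set against each other at 3.5 h, VWF and LPS differed past both thresholds in Bbc3, which was lower with VWF (log2 fold change -1.21 ± 0.11, edgeR adjusted p = 8.887e-06). With library size alone the value was -0.91, under the fold threshold. That made 0 members higher and 1 lower among the 9 tested, as Pmaip1 was under 10 TPM in all of these cultures, against 11.4% of 7500 genes called, 4.71% higher and 6.71% lower. Bcl2l11 was higher with VWF than with LPS in every culture, by 0.58 ± 0.13 on the log2 scale (edgeR adjusted p = 0.004872), under the fold threshold. Bcl2l1 was also higher with VWF, by 0.64 ± 0.10 (edgeR adjusted p = 0.0004515). The A1 genes were lower with VWF, by 0.73 to 0.90 on the log2 scale, and the adjusted p was 0.0144 for their sum. Bcl2a1a went past both thresholds in 4 of 9 fits that left out 1 culture, those without VWF 3.5 h replicate 3 or 4 or LPS 3.5 h replicate 1 or 2, with log2 fold changes of -1.07 to -1.001, so its place under the threshold depended on single cultures.

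**Figure D2:**
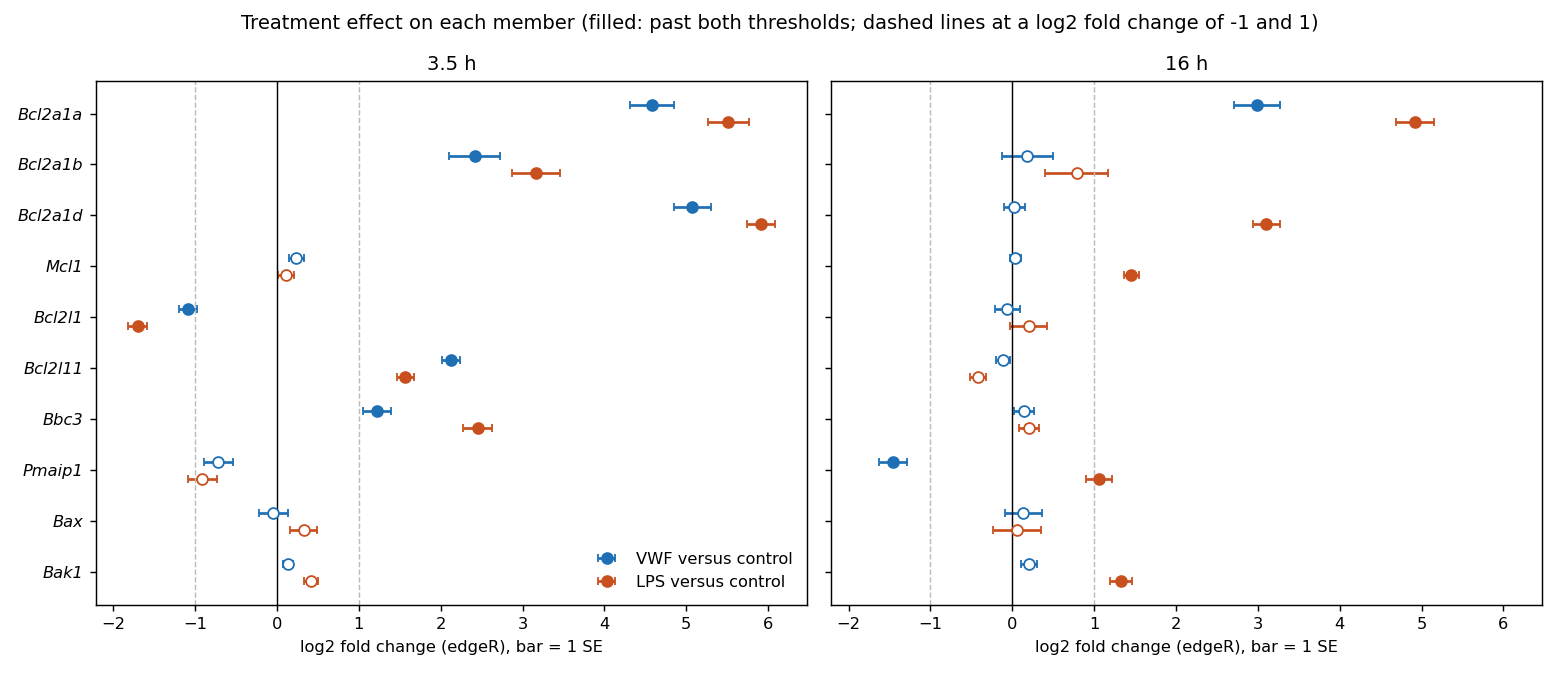
Log2 fold change of each member against control (horizontal axis) with a bar of 1 SE, for VWF (blue) and LPS (orange) at 3.5 h (left) and 16 h (right). Filled points are past both thresholds, and dashed lines mark log2 fold changes of -1 and 1. Of the 6 members past both at 3.5 h, only Bcl2a1a was still past both with VWF at 16 h, and only Bcl2a1a and Bcl2a1d with LPS.

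At 16 h, 2 members separated VWF from control: Bcl2a1a was higher and Pmaip1 lower. The background was 8.71% of 7798 genes, 4.55% higher and 4.15% lower, and the median log2 fold change was 0.086 over the members and -0.030 over all genes tested. Bcl2a1a was at 1.54, 1.13, 1.71, 1.68 and 0.967 CPM in control and at 10.8, 10.3, 11.9, 16.9 and 6.33 CPM with VWF. The groups were well apart, and the log2 fold change was 2.99 ± 0.28 (n = 5 and 5, edgeR adjusted p = 2.405e-05). Pmaip1 was at 19.5, 18.3, 16.99, 18.0 and 25.3 CPM in control and at 8.80, 6.16, 5.16, 8.64 and 7.08 CPM with VWF. Each VWF culture was below each control, and the log2 fold change was -1.46 ± 0.17 (edgeR adjusted p = 9.396e-05).

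The other A1 copies were near the control level at 16 h with VWF. Bcl2a1d was at 15.6 ± 2.32 CPM with VWF and 15.2 ± 1.74 CPM in control (SD, n = 5 and 5), a log2 fold change of 0.027 ± 0.13 (edgeR adjusted p = 0.9083). Bcl2a1b was at 26.6 ± 8.78 and 23.4 ± 11.9 CPM, a log2 fold change of 0.18 ± 0.31 (edgeR adjusted p = 0.734), and Control 16 h replicate 5 held the highest value of that group, 44.2 CPM. Without that culture the log2 fold change was 0.53. The A1 sum did not pass the test (0.41 ± 0.21, edgeR adjusted p = 0.1966). The call of Bcl2a1a at 16 h rests on reads assigned to that copy and was not seen in the sum.

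Bcl2l11, Bbc3, Mcl1, Bcl2l1, Bax and Bak1 did not pass the test at 16 h with VWF, with log2 fold changes between -0.11 and 0.20 and adjusted p values of 0.1665 or more. For Bcl2l11 the groups, at 35.1 ± 2.35 CPM with VWF and 37.8 ± 3.49 CPM in control (SD, n = 5 and 5), overlapped. The sign of the small value of Bcl2l1 turned without Control 16 h replicate 5, from -0.059 to 0.11. Bak1 was higher in every VWF culture, at 110 to 122 CPM, than in any control, at 78.6 to 107 CPM, with a log2 fold change of 0.20 ± 0.098 (edgeR adjusted p = 0.1665).

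With LPS at 16 h, Mcl1, Bcl2a1a, Bcl2a1d, Pmaip1 and Bak1 rose and 0 members fell, against 27.6% of 7994 genes called, 15.3% higher and 12.4% lower. The median log2 fold change was 0.92 over the members and -0.029 over all genes tested. Mcl1 was at 683, 670, 663, 730 and 680 CPM in control and at 1754, 1868, 1715 and 1980 CPM with LPS. Its log2 fold change was 1.46 ± 0.095 (n = 4 and 5, edgeR adjusted p = 1.185e-06), and at 3.5 h it had been 0.11 ± 0.097. Bcl2a1d was at 115, 117, 107 and 169 CPM and rose by 3.10 ± 0.16 on the log2 scale (edgeR adjusted p = 3.528e-07). Bcl2a1a was at 35.1, 35.9, 40.9 and 54.0 CPM and rose by 4.92 ± 0.23 (edgeR adjusted p = 1.882e-07). The sum of the A1 copies rose by 2.42 ± 0.25 (edgeR adjusted p = 2.981e-05).

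Bak1, an effector resident at the mitochondrial membrane, was at 105, 107, 107, 99.6 and 78.6 CPM in control and at 261, 256, 268 and 188 CPM with LPS. The lowest LPS culture was above the highest control, and the log2 fold change was 1.33 ± 0.14 (edgeR adjusted p = 2.393e-05). Pmaip1 was at 45.0, 42.5, 30.1 and 41.8 CPM with LPS, above every control, and rose by 1.06 ± 0.16 (edgeR adjusted p = 0.0003229), the opposite direction to VWF at the same time. With library size alone, the values of Mcl1, Pmaip1 and Bak1 were 0.89, 0.51 and 0.76, under the fold threshold, and the median of all genes was -0.59. Bcl2a1a and Bcl2a1d passed both thresholds under either scaling, with 4.33 and 2.53 by library size alone.

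Bcl2a1b was at 29.8, 39.9, 24.4 and 63.2 CPM with LPS at 16 h and overlapped the control range. Its log2 fold change was 0.79 ± 0.38 (edgeR adjusted p = 0.1119), and it was 1.15 and past both thresholds without Control 16 h replicate 5. Without that culture and LPS 16 h replicate 4 together it was 0.82 and not past them. Bcl2l11, in contrast, was at 25.3 to 29.8 CPM with LPS and at 31.98 to 41.2 CPM in control, a log2 fold change of -0.42 ± 0.10 under the fold threshold (edgeR adjusted p = 0.005751). Bbc3, Bcl2l1 and Bax did not pass the test, with log2 fold changes of 0.20, 0.20 and 0.056, which with library size alone were -0.36, -0.35 and -0.49.

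VWF and LPS cultures differed in 5 members at 16 h, all lower with VWF, so 0 were higher and 5 lower, against 25.5% of 7574 genes called, 11.1% higher and 14.5% lower. The log2 fold changes were -3.03 ± 0.17 for Bcl2a1d, -2.47 ± 0.19 for Pmaip1, -1.88 ± 0.25 for Bcl2a1a, -1.37 ± 0.083 for Mcl1 and -1.08 ± 0.11 for Bak1, with edgeR adjusted p values of 0.0001144 or less. The groups did not overlap in any of these. With library size alone Mcl1 and Bak1 were at -0.91 and -0.63 and only the other 3 members passed the fold threshold. Bcl2l11 was higher with VWF, by 0.35 ± 0.087 on the log2 scale (edgeR adjusted p = 0.005676), under the fold threshold. Deviations of same-numbered cultures of these groups had a positive r in all 4 pairs, but cultures of unlike number were not compared. With the replicate number as a block Bcl2a1b, lower with VWF in all 4 pairs, had a log2 fold change of -0.46 (edgeR adjusted p = 0.003635). Without the block it was -0.56 (edgeR adjusted p = 0.1372), and it was under the fold threshold in both.

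The effect of VWF at 16 h minus its effect at 3.5 h was then tested for each member. The effect was smaller at 16 h for the 3 A1 genes, Bcl2l11 and Bbc3, and the loss of Bcl2l1 was no longer seen. That gave 1 member higher and 5 lower in this contrast, against 13.5% of 8660 genes called, 5.69% higher and 7.77% lower. The log2 difference was -5.01 ± 0.25 for Bcl2a1d, -2.21 ± 0.14 for Bcl2l11, -2.21 ± 0.47 for Bcl2a1b, -1.56 ± 0.37 for Bcl2a1a, -1.04 ± 0.21 for Bbc3 and 1.06 ± 0.21 for Bcl2l1, with edgeR adjusted p values of 0.00269 or less. Bbc3 and Bcl2l1 were close to the fold threshold. Bbc3 was at -0.99 to -0.98 without Control 3.5 h replicate 2 or 5 or VWF 3.5 h replicate 3 and at -0.91 with library size alone, and Bcl2l1 was at 0.999 without Control 3.5 h replicate 3 and 0.96 without VWF 16 h replicate 4. Within VWF cultures, Bcl2a1d fell by 4.21, Bcl2a1b by 2.27, Bcl2l11 by 1.96 and Bcl2a1a by 1.46 on the log2 scale from 3.5 h to 16 h. These 4 fell and 0 rose among 9 tested members, against 21.4% of 7927 genes, 9.15% higher and 12.2% lower.

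The controls were not level over time. Between 3.5 h and 16 h without agonist, Bbc3 rose from 6.76 ± 1.74 to 15.9 ± 1.85 CPM (SD, n = 5 and 5), by 1.24 ± 0.17 on the log2 scale (edgeR adjusted p = 0.0003496). Bcl2l1 fell from 294 ± 37.3 to 146 ± 39.0 CPM, by 1.00 ± 0.17 (edgeR adjusted p = 0.001255), at the fold threshold. This was 1 member higher and 1 lower of 9 tested, against 9.08% of 8333 genes, 4% higher and 5.09% lower. In VWF cultures neither moved past the test over the same interval, at 15.6 and 17.7 CPM for Bbc3 and 136 and 141 CPM for Bcl2l1. Pmaip1 was at 10.5 ± 2.27 CPM in control at 3.5 h and 19.6 ± 3.28 CPM at 16 h, without overlap (0.90 ± 0.17, edgeR adjusted p = 0.002109), and at 6.34 and 7.17 CPM with VWF. Its value in control was under the fold threshold except without Control 3.5 h replicate 1, where it was 1.01. Bcl2a1d (0.81 ± 0.12) and Mcl1 (-0.46 ± 0.089) also passed the adjusted p alone in control. The Bcl2l1 call in control was lost with DESeq2 and with RLE factors, where the log2 fold change was -0.998 in both, and in 6 of 10 fits that left out 1 culture, those without Control 3.5 h replicate 2 or 3 or Control 16 h replicate 1, 2, 3 or 4 (-0.98 to -0.93). It was -1.19 without Control 16 h replicate 5, which had the highest level of that group.

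For LPS, the effect at 16 h minus that at 3.5 h was positive for Pmaip1 (1.98 ± 0.24), Bcl2l1 (1.91 ± 0.27) and Mcl1 (1.35 ± 0.12), and negative for Bcl2a1d (-2.79 ± 0.23), Bcl2a1b (-2.37 ± 0.51), Bbc3 (-2.24 ± 0.21) and Bcl2l11 (-1.97 ± 0.14), all with edgeR adjusted p values of 0.0009053 or less. Pmaip1 had gone from -0.91 to 1.06, Bcl2l1 from -1.70 to 0.20, which did not pass the test, and Mcl1 from 0.11 to 1.46. These 3 higher and 4 lower members stand against 26.3% of 8748 genes, 13.5% higher and 12.8% lower. The effect on Bcl2a1a did not pass the test of a change with time (-0.58 ± 0.33, edgeR adjusted p = 0.157). For Bak1 the difference was 0.93 ± 0.15, under the fold threshold (edgeR adjusted p = 8.536e-05). It was 1.03 and past both thresholds without LPS 16 h replicate 4. Within LPS cultures, Pmaip1 rose from 5.53 ± 0.703 to 39.9 ± 6.64 CPM and Bak1 from 108 ± 11.6 to 243 ± 37.4 CPM (SD, n = 4 and 4), by 2.87 ± 0.17 and 1.20 ± 0.13 on the log2 scale. Bcl2a1b, Bcl2a1d, Bcl2l11 and Bbc3 fell, with log2 fold changes of -2.43, -1.99, -1.73 and -1.004, and the call of Bbc3 was lost in 4 of 8 fits that left out 1 culture, those without LPS 3.5 h replicate 2 or 3 or LPS 16 h replicate 1 or 3 (-0.98 to -0.96). These were 2 members higher and 4 lower, against 28.1% of 6987 genes, 14.6% higher and 13.5% lower.

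**Figure D3:**
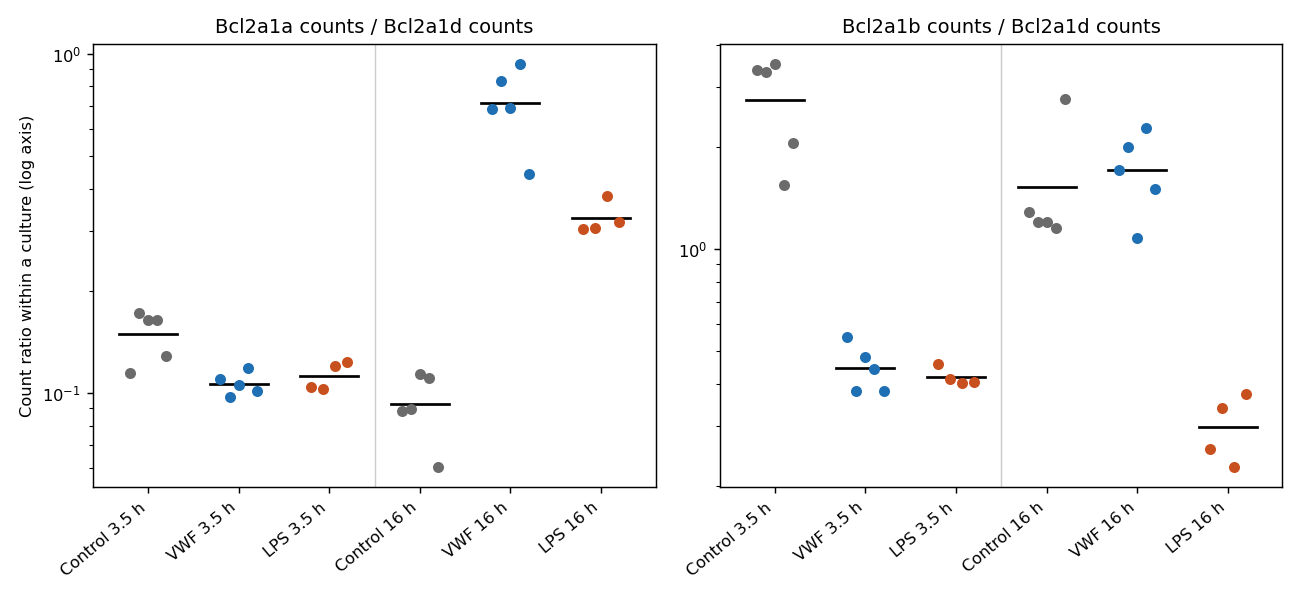
Ratio of Bcl2a1a to Bcl2a1d counts (left) and of Bcl2a1b to Bcl2a1d counts (right) in each culture (log axis), with a line at the group mean, for control (grey), VWF (blue) and LPS (orange). The ratio of Bcl2a1a to Bcl2a1d was highest with VWF at 16 h, and the ratio of Bcl2a1b to Bcl2a1d was lowest in both agonist groups at 3.5 h and with LPS at 16 h.

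The copies did not keep a fixed ratio. This comparison was chosen after the values had been seen, and 18 differences of log2 count ratios were tested by a two-sided exact permutation test with Benjamini-Hochberg adjustment. Bcl2a1d had the fewest counts relative to Bcl2a1b in control at 3.5 h, where Bcl2a1b counts were 2.75 ± 0.894 of Bcl2a1d counts (SD, n = 5), and 0.447 ± 0.0711 with VWF and 0.420 ± 0.0255 with LPS (exact permutation p = 0.007937 for both against control, adjusted 0.01299). At 16 h the ratio of Bcl2a1a to Bcl2a1d counts was 0.0925 ± 0.0213 in control, 0.716 ± 0.184 with VWF and 0.328 ± 0.0364 with LPS. No group overlapped another in this ratio, with an exact permutation p of 0.007937 for VWF and LPS against control, the smallest that these group sizes allow, and 0.01587 for VWF against LPS (adjusted 0.02198). At 3.5 h the same ratio was 0.149 ± 0.0255 in control, 0.107 ± 0.00822 with VWF and 0.112 ± 0.0106 with LPS. The difference between VWF and control there was -0.47 on the log2 scale, with overlapping ranges (exact permutation p = 0.01587, adjusted 0.02198). That between LPS and control was -0.39 and did not pass (exact permutation p = 0.06349, adjusted 0.08163).

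**Figure D4:**
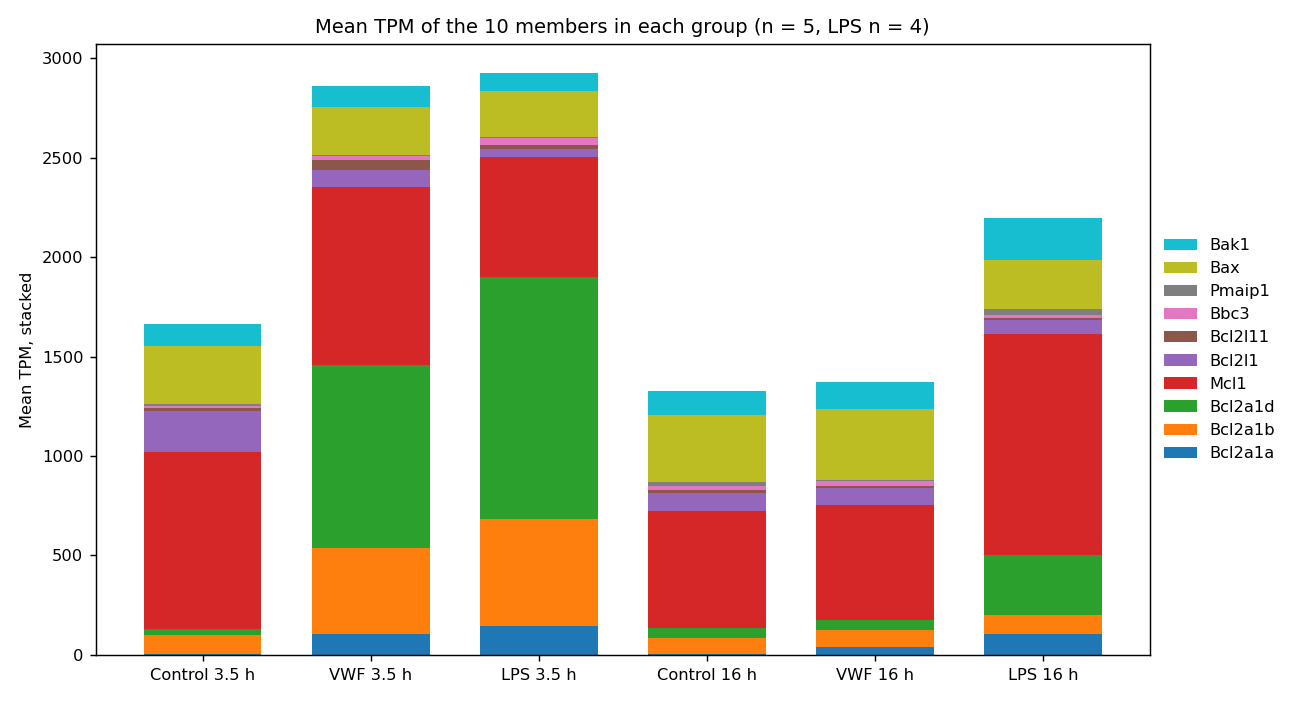
Mean TPM of the 10 members stacked by group (n = 5, LPS n = 4). Mcl1 and Bax made up most of the family in control, and Bcl2a1d was above Mcl1 with LPS at 3.5 h, while with VWF their means were close.

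To compare levels between genes, TPM was used, which divides by exon length. In control at 3.5 h, Mcl1 was the most abundant member at 890 ± 99.5 TPM, or 53.4% of the summed TPM of the 10 members, followed by Bax at 290 ± 42.0 TPM and Bcl2l1 at 206 ± 12.9 TPM (SD, n = 5). With VWF at 3.5 h, Bcl2a1d reached 923 ± 206 TPM and Mcl1 was at 895 ± 25.5 TPM, and with LPS they were at 1218 ± 226 and 600 ± 34.1 TPM. With VWF, Mcl1 was above Bcl2a1d in 3 of 5 cultures, and the order of the means turned without replicate 3 (863 TPM for Bcl2a1d and 900.3 for Mcl1) or replicate 4 (880.0 and 901). The 5 pro-survival members were 73.7% ± 2.12 of the family's TPM in control at 3.5 h, 85.2% ± 1.61 with VWF and 86.8% ± 1.35 with LPS, without overlap between control and either agonist. At 16 h their share was 61.2% ± 2.74 in control, 61.1% ± 2.28 with VWF and 76.7% ± 0.355 with LPS. The BH3-only members were 2.13% to 4.23% of the family in every group mean, and the effectors were 11.1% with LPS at 3.5 h and 35.8% with VWF at 16 h, the lowest and highest of the 6 group means. TPM of the A1 copies, and shares that hold them, depend on how reads shared with other genes were counted, which is not given. Of the 100-base windows, 54.7% were shared for Bcl2a1d and 0% for Mcl1. TPM was also not scaled by TMM factors. Mcl1 was lower with LPS than in control at 3.5 h in TPM, but was at 1004 and 941 CPM. TPM shares weigh every transcript alike and do not measure the balance of the proteins.

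The order of the groups differed among members. For Bcl2l11 it was VWF 3.5 h, then LPS 3.5 h, then control at 16 h, and these 3 groups did not overlap in turn. Control at 16 h, VWF at 16 h and control at 3.5 h overlapped their neighbours, and LPS at 16 h lay below all. For Mcl1, LPS at 16 h was above all other groups, and VWF, LPS and control at 3.5 h overlapped their neighbours. For Bcl2l1, control at 3.5 h was highest and LPS at 3.5 h lowest, and the 4 groups between them overlapped in turn. For Bax, each group overlapped the next over the whole order, from 137 to 207 CPM.

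The genes whose log2 CPM followed each member most closely over the 28 cultures, among those reaching 10 TPM, are given as a description, since cultures share treatments and times. For Bcl2a1a they were Ifi47, Gm12250 and Oasl1 (Pearson r of 0.976 to 0.977), of which Ifi47 and Oasl1 are interferon-induced. For Bcl2a1d they were Il27, which encodes a cytokine subunit, Dram1 and the costimulatory receptor gene Cd40 (0.979 to 0.984), and for Bcl2a1b they were Bcl10, Eif6 and Abracl (0.967 to 0.970). Il27, Rbm7 and Elp5 followed the A1 sum (0.969 to 0.976). Mcl1 was followed by the glycolytic regulator Pfkfb3, Efhd2 and Slc15a3 (0.937 to 0.945), and Bcl2l1 by Pwwp2b, Ube2g2 and Samd8 (0.915 to 0.921).

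For the BH3-only genes the closest were Adgrl2, Klhl25 and Mob3b for Bcl2l11 (0.962 to 0.976), Pigv, Nectin2 and Rbm43 for Bbc3 (0.880 to 0.914), and Gpr35, Tusc1 and Neu1 for Pmaip1 (0.924 to 0.928). Bax was followed by Ndufs6, Atp5d and Ndufa13 (0.970 to 0.973), which encode subunits of respiratory complex I and ATP synthase. Bak1 was followed by I830077J02Rik and the chaperone gene Dnajb1 (0.974 and 0.966).

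Of 15 other BCL2 family genes, 6 were tested at 3.5 h and 5 at 16 h against control. With VWF, 0 rose or fell at either time by edgeR, although 1 higher and 1 lower gene passed the adjusted p alone at 3.5 h. With LPS at 3.5 h 0 rose or fell, and 1 higher and 2 lower genes passed the adjusted p alone. With LPS at 16 h, 1 rose, Bnip3, a mitophagy receptor (log2 fold change 2.00 ± 0.20, edgeR adjusted p = 2.024e-05).

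Downstream of the mitochondria, genes of the apoptosome were read in the same fits. Casp9, the initiator caspase of the apoptosome, fell with both agonists at 3.5 h, with log2 fold changes of -1.18 ± 0.087 with VWF and -2.12 ± 0.10 with LPS (edgeR adjusted p = 5.064e-07 and 1.177e-08). With LPS at 3.5 h, Apaf1, the scaffold of the apoptosome, rose by 1.504 ± 0.095 and Cycs, cytochrome c, by 1.25 ± 0.10 on the log2 scale (edgeR adjusted p = 1.06e-07 and 1.207e-06). With LPS at 16 h, Cycs rose by 1.93 ± 0.12 and Apaf1 by 1.16 ± 0.14 (edgeR adjusted p = 1.078e-06 and 7.385e-05).

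The counts in these lists against control stand beside the shares of all genes called given above, 14.7% with VWF and 24.5% with LPS at 3.5 h, and 8.71% and 27.6% at 16 h. These shares need both thresholds. They are no background for the counts of list genes past the adjusted p alone, among the other BCL2 family genes and the regulators, and nothing is read from those counts. Among 5 inhibitors of apoptosis, 4 were tested at 3.5 h, where Birc3 and Birc2, which encode ubiquitin ligases of TNF receptor signalling, rose and 0 fell with each agonist. Birc3 rose by 2.43 ± 0.14 with VWF and 2.12 ± 0.16 with LPS, and Birc2 by 1.69 ± 0.077 and 1.88 ± 0.089 on the log2 scale (edgeR adjusted p values of 4.272e-07 or less). At 16 h with VWF, Birc3 rose by 1.15 ± 0.14, and Birc5, which encodes survivin and is expressed in dividing cells, fell by 1.61 ± 0.40 (edgeR adjusted p = 0.0001548 and 0.01226). With LPS at 16 h, 2 of 5 rose, Birc3 (2.47 ± 0.15) and Birc6 (2.15 ± 0.11), and Birc5 fell (-5.48 ± 0.60).

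Of 8 regulators of the family, 7 were tested at 3.5 h, where Cdkn1a, a p53 target that arrests the cell cycle, rose by 3.45 ± 0.12 with VWF and 3.47 ± 0.14 with LPS. Foxo3, a transcription factor known to activate Bcl2l11 and Bbc3, fell, with log2 fold changes of -2.29 ± 0.13 with VWF and -3.24 ± 0.20 with LPS (edgeR adjusted p values of 1.033e-07 or less). These were 1 higher and 1 lower with VWF and 3 higher and 1 lower with LPS, which also raised Mdm2 (1.26 ± 0.11) and Trp53 (1.04 ± 0.11). At 16 h 0 of 6 rose or fell with VWF, where 2 higher and 2 lower genes passed the adjusted p alone, and with LPS 3 of 6 rose, Mdm2 (2.28 ± 0.13), Cdkn1a (1.87 ± 0.13) and Ddit3, which encodes the stress factor CHOP (1.54 ± 0.13).

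Between the agonists at 16 h, Cycs (-1.25 ± 0.10) and Apaf1 (-1.07 ± 0.090) were lower with VWF than with LPS. Of 6 regulators, Ddit3 (-1.90 ± 0.15), Mdm2 (-1.45 ± 0.13), Cdkn1a (-1.42 ± 0.10) and Fbxw7, which encodes part of a ubiquitin ligase that targets MCL1, were lower with VWF, and Trp53 was higher (1.01 ± 0.14). Of 5 inhibitors of apoptosis, Birc6 (-1.82 ± 0.11) and Birc3 (-1.27 ± 0.14) were lower and Birc5 was higher (3.92 ± 0.35). Of all 7574 genes tested in this comparison, 25.5% were called, 11.1% higher and 14.5% lower with VWF. At 3.5 h the only gene of the 4 lists past both thresholds between the agonists was Usp9x, which encodes a deubiquitinase of MCL1 and was higher with VWF (1.33 ± 0.47, edgeR adjusted p = 0.0373). Of all 7500 genes tested there, 11.4% were called.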

How the data were processed

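RNA of 28 BMDM cultures was sequenced as paired 150-base reads. The authors mapped the reads to GRCm38 and quantified them with STAR, and deposited raw counts per gene, which are the counts used here. The STAR version, annotation, strand setting and handling of multi-mapped reads are not stated in the paper or labels read here. Groups came from the sample labels. Of 54532 genes, 54495 were matched to GENCODE M21 for names and exon lengths, from which TPM was computed. Total counts were 41131209 to 77699206 per culture, with a median of 52986574, and their number limits the precision of low genes only.

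Comparisons were fitted with edgeR 4.0.16 in R 4.3.3 (TMM factors, robust quasi-likelihood test, limma 3.58.1) on the cultures compared, over genes with at least 10 TPM in 1 culture. Calls needed a Benjamini-Hochberg p under 0.05 and a log2 fold change beyond 1 either way, as in the study, which used DESeq2. The change of an effect with time was an interaction term. The scripts were tested on simulated data. Alternatives were DESeq2 1.42.0, RLE factors, library size alone, filterByExpr, no filter, no fold threshold, all cultures in 1 fit, a replicate block, each culture left out, and the A1 copies summed. Leaving out 3 cultures with outlying members at 16 h was added after seeing the data.

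Deviations of same-numbered cultures from their group means had a positive r in all 4 pairs for VWF 16 h and LPS 16 h (0.16 to 0.781). The same held for LPS 3.5 h and VWF 16 h (0.0816 to 0.264), and for no other groups. Cultures of unlike number were not compared, so these values cannot show that the numbers mark a pairing. What the numbers stand for is not given in the labels. No 2 cultures of a group were alike within counting noise (lowest chi-square per degree of freedom 17.1 over 52 pairs). Named genes of the other lists were those past both thresholds, up to 3 per direction, list and comparison; Fbxw7 was named besides, after its value was seen. The 3 genes most correlated with each member were also named. Some results of the apoptosome list and of the correlated genes are not reported here, so that list is given without counts. The members and lists were chosen with earlier results of these data known.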

Additional observations from a re-analysis of the deposited data

Results flagged for a closer look

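In 8 of 60 groups, 1 culture lay far from the others of its group by Dixon's test, where chance gives about 1 in 20. Control 16 h replicate 5 had the highest Bcl2a1b (44.2 CPM, others 15.1 to 22.2), Bcl2l1 (215 CPM, others 122 to 138) and Bax (301 CPM, others 142 to 174) and the lowest Bak1 (78.6 CPM, others 99.6 to 107). LPS 16 h replicate 4 had the highest Bcl2a1d (169 CPM, others 107 to 117) and the lowest Bak1 (188 CPM, others 256 to 268). VWF 16 h replicate 4 had the highest Bax (306 CPM, others 162 to 192). Control 16 h replicate 4 had the highest Mcl1 (730 CPM, others 663 to 683).

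The effect of VWF differed between 16 h and 3.5 h, by edgeR's interaction test with adjusted p, in 7 members and the A1 sum, against 32.6% of all genes tested past the same adjusted p. The log2 differences were -1.56 for Bcl2a1a (0.00269), -2.21 for Bcl2a1b (0.000927), -5.01 for Bcl2a1d (3.42e-11), 1.06 for Bcl2l1 (0.000415), -2.21 for Bcl2l11 (2.77e-10), -1.04 for Bbc3 (0.000696), -0.71 for Pmaip1 (0.0344) and -3.28 for the sum (5.94e-07). The effect of LPS differed in 8 members and the sum, against 48.8%. These differences were -2.37 for Bcl2a1b (0.000905), -2.79 for Bcl2a1d (3.46e-08), 1.35 for Mcl1 (9.41e-08), 1.91 for Bcl2l1 (1.46e-05), -1.97 for Bcl2l11 (8.88e-09), -2.24 for Bbc3 (1.52e-07), 1.98 for Pmaip1 (2.97e-06), 0.93 for Bak1 (8.54e-05) and -2.12 for the sum (0.000103).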

How the results depend on the processing

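Of the members' log2 fold changes, 106 kept their direction and side of the thresholds with DESeq2 and 1 did not, with the same counts for RLE factors. Library size alone gave 2 members called for LPS versus control at 16 h, 0 for VWF versus LPS at 3.5 h and 3 at 16 h. It turned Bak1 (-0.078) in VWF versus control at 3.5 h, Bcl2a1d (-0.033) and Mcl1 (-0.022) at 16 h, Mcl1 (-0.42), Bax (-0.20) and Bak1 (-0.13) in LPS versus control at 3.5 h, Bcl2l1 (-0.35), Bbc3 (-0.36) and Bax (-0.49) at 16 h, Bak1 (0.053) in VWF versus LPS at 3.5 h, and Bcl2l1 (0.26) and Bbc3 (0.45) at 16 h. It moved the median of all genes by up to 0.589, and 25 of 66 group levels, the A1 sum included, by over 1 SD. Summing the A1 copies gave 1 member called for VWF versus control at 16 h. DESeq2 and RLE factors gave 1 for control over time. No fold threshold gave 7 for VWF versus LPS at 3.5 h, 7 for control over time and 7 for VWF over time. The shares of all genes given for these comparisons also need the fold threshold, so they are no background for these counts.

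Leaving out 1 culture gave 1 to 2 members called for VWF versus LPS at 3.5 h and 1 to 3 for control over time, where Pmaip1 was called without Control 3.5 h replicate 1. It turned signs, always of values that had not passed the test, in these ranges: VWF versus control at 3.5 h, Bax (-0.15 to 0.053); at 16 h, Bcl2a1b (-0.018 to 0.53), Bcl2a1d (-0.027 to 0.099), Bcl2l1 (-0.12 to 0.11) and Bax (-0.039 to 0.36). For LPS versus control at 16 h they were Bcl2l1 (-0.017 to 0.38) and Bax (-0.25 to 0.29), and for VWF versus LPS at 16 h Bbc3 (-0.093 to 0.054) and Bax (-0.058 to 0.41). Over time they were Bcl2a1b in control (-0.42 to 0.13), Bcl2l1 with VWF (-0.018 to 0.11), Bax with LPS (-0.17 to 0.26) and Bax in the change of the VWF effect (-0.0053 to 0.43). Without Control 16 h replicate 5, VWF 16 h replicate 4 and LPS 16 h replicate 4, Bcl2a1d (-0.00085) and Bcl2l1 (0.061) in VWF versus control at 16 h, Bax (-0.0054) in LPS versus control at 16 h, Bcl2l1 (-0.018) with VWF and Bax (-0.17) with LPS over time, and Bak1 (-0.018) in the change of the VWF effect turned. Other turns were Bax in VWF versus control at 3.5 h with filterByExpr (0.012) and no filter (0.0024), Bcl2l1 with no filter in VWF versus control at 16 h (0.011) and VWF over time (-0.0026), and Bbc3 in VWF versus LPS at 16 h with all cultures in 1 fit (0.0041).

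With the replicate block, Bcl2a1b rose in LPS versus control at 16 h (1.07, edgeR adjusted p = 0.0193), and no other member's call past both thresholds changed. Same-numbered cultures of those groups did not deviate together (r of -0.666 to 0.646). Genes called over the whole table went, with filterByExpr and no filter, from 1204 to 2099 and 2366 (VWF versus control, 3.5 h), 679 to 1362 and 1378 (16 h), 2010 to 3917 and 4542 (LPS versus control, 3.5 h), 2210 to 4087 and 4224 (16 h), 856 to 1776 and 1942 (VWF versus LPS, 3.5 h), 1932 to 3897 and 4242 (16 h), 757 to 1570 and 1524 (control over time), 1694 to 3458 and 3974 (VWF over time), 1964 to 4116 and 4298 (LPS over time), 1166 to 1972 and 1904 (change of the VWF effect) and 2301 to 3790 and 3613 (change of the LPS effect). These settings test more genes.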
